A study of Mus musculus with 24 samples.

Results

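The genes described here are 47 genes of DNA replication, out of 25755 genes in the files, in dermal papilla (DP) cells of the mouse hair follicle. They were taken by gene symbol: the 6 subunits of the MCM2-7 helicase, the 6 subunits of the origin recognition complex (ORC), the licensing factors Cdc6 and Cdt1 with the inhibitor Gmnn, the helicase partners Cdc45, GINS (4 genes) and Mcm10, the kinase subunits Cdc7 and Dbf4, the clamp Pcna with its loader RFC (5 genes), 9 primase and polymerase genes, Fen1, Lig1 and RPA (3 genes), and 4 genes of nucleotide supply. All 47 symbols were found.

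DP cells were sorted on YFP from the back skin of mice with the DP driver Corin-Cre. The mutant, dM1/2, carries floxed alleles on each chromosome for both deacetylase genes (Cor-cre/+; Hdac1Flox/Flox; Hdac2Flox/Flox). Controls carry the same Cre with fewer floxed alleles, in several genotypes, some with both copies of either gene floxed, and the labels do not say which library has which genotype. RNA of 3 control and 3 dM1/2 mice was sequenced at each of P20 (first telogen, the resting phase; females), P24 and P28 (early and mid anagen, the growth phase of the second cycle; males) and P60 (second telogen; both sexes were used by the study), which gave 24 libraries. Sex and depth therefore changed along with stage, and cannot be told apart from it.

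Before S phase, ORC marks origins, and Cdc6 and Cdt1 load the MCM2-7 ring there, a step that geminin (Gmnn) blocks by holding Cdt1. In S phase, the kinase of Cdc7 and Dbf4 sets off the assembly of MCM2-7 with Cdc45 and GINS into the active helicase, after which primase, the polymerases, the clamp and the ligase copy the DNA. Most of these genes are switched on at the border of G1 and S by E2F transcription factors, and DP cells are known as a largely quiescent niche for the epithelial cells of the follicle.

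Because E2F sites are the best known shared feature of these promoters, the 39 members with a promoter window in RefSeq (250 bases before to 50 after the start site, build GRCm38.p6) were searched for the words TTTCCCGC, TTTCGCGC, TTTGCCGC and TTTGGCGC on both strands. At least 1 word was found in 15 of the 39 members (38.5%), against 2.6% of 27025 genes with a window. Of the 33 members with a window that rose in dM1/2 at P28 (below), 14 held a word (42.4%), and so did 1 of the 6 that did not pass the threshold (16.7%). A match describes the letters only. The 4 stretches that follow run 5′ to 3′ on the strand of the gene and end at or shortly before the start site, with E2F words in capitals, and were chosen after the values were seen. Mcm5 had the largest rise of the helicase genes at P28, Mcm6 holds the most words, Pola1 holds a word on the opposite strand, and Rrm2 rose about as much as Mcm5 without a word in its window. They lie at chr8:75109339-75109508 (plus strand), chr1:128359706-128359875 (minus strand), chrX:93632156-93632325 (minus strand) and chr12:24708084-24708240 (plus strand).
Mcm5: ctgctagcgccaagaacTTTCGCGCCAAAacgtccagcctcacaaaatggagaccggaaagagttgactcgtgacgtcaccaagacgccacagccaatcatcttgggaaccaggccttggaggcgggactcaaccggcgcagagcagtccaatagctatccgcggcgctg
Mcm6: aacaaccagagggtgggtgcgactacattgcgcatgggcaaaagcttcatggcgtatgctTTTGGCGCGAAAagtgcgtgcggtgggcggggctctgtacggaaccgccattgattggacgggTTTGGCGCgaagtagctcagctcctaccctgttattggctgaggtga
Pola1: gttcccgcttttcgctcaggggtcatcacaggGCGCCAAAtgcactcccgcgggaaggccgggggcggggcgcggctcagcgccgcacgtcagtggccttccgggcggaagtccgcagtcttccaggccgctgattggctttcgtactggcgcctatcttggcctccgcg
Rrm2: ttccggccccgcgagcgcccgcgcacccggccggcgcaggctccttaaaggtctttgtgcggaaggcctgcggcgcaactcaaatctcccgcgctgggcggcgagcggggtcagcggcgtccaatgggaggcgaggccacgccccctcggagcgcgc
In Mcm5 a word on each strand overlaps to form the run in capitals, and the first run in Mcm6 is also made of overlapping words.

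Values are normalized reads, that is counts scaled by a size factor for each library, as the authors deposited them, and are listed in the order of the replicate numbers. Counted reads per library were 11635062 to 13369732 at P20, 35469841 to 49331751 at P24, 37171260 to 48331795 at P28 and 8171944 to 9724000 at P60. Hdac1 was 675, 668 and 668 in P24 controls and 209, 188 and 116 in P24 dM1/2, and 214, 529 and 105 in the P28 libraries labelled control against 190.2, 149 and 126 in P28 dM1/2. At P28 the groups overlapped, since the library labelled P28 control 3 lay below every dM1/2 library. At P20 Hdac1 was 375, 511 and 505 in controls and 216, 369.6 and 270.0 in dM1/2, and at P60 it was 506, 359.9 and 376 in controls against 371, 347 and 318 in dM1/2. The P60 groups overlapped too, since dM1/2 1 lay above control 2. Hdac2 was 925 to 1069 in controls and 1157 to 1282 in dM1/2 at P24, 968 to 1117 and 1091 to 1223 at P28, 828 to 952 and 838 to 928 at P20, and 609 to 775 and 699 to 809.6 at P60, and was in no age lower in every dM1/2 library; a count over the whole gene does not test the floxed exons. Some libraries stood apart in the replication genes: control 1 and dM1/2 1 of P20 were the lowest of their group in 36 and 37 of the 47 genes, control 3 of P24 was the highest in 38, and dM1/2 2 of P24 was the lowest in 39. Summed reads of 14 DP markers, which were present in every library, were 353646 to 415074 in controls and 179165 to 225853 in dM1/2 at P24, and 171950 to 491679 and 145693 to 162737 at P28. The paper reports lower expression of some DP genes, among them the Rspondins, Fgf7 and Fgf10, within the mutant DP in mid-anagen. It also reports a higher number of DP cells per follicle in the mutant during anagen. Whether the lower anagen sums reflect a smaller share of DP cells among the sorted cells or less RNA of these markers per cell was not tested.

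Replication genes rose together in anagen dM1/2 DP cells and did not pass the test in telogen. At P24, 40 of the 47 genes were higher in dM1/2 and none was lower, in limma with Benjamini-Hochberg adjustment over all genes tested at an adjusted p under 0.05, beside 14.8% of 14028 genes that were higher. At P28, 41 were higher and none was lower, beside 20.0% of 14126 genes. The genes that were lower made up 11.8% of all genes at P24 and 15.6% at P28. The 47 genes had a median log2 fold change of 1.06 (P24) and 1.56 (P28), beside -0.01 and 0.00 over all genes tested. At P24, 28 genes rose by at least 1 on the log2 scale and 3 by at least 2, and at P28 34 and 17 genes did. In all, 38 genes were higher at both ages, Orc6 and Rfc1 at P24 but not P28, and Mcm4, Pold2 and Rpa3 at P28 but not P24, while Orc3, Orc4, Orc5 and Cdc7 passed the test at neither. The shares of all genes that rose by these amounts, or that were higher at both ages, were not counted. Every dM1/2 library lay above every control in 42 genes at P24, beside 23.8% of all genes tested, and in 44 genes at P28, beside 28.0%. No gene lay below every control at either age, beside 21.0% and 23.3%.

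**Figure D1:**
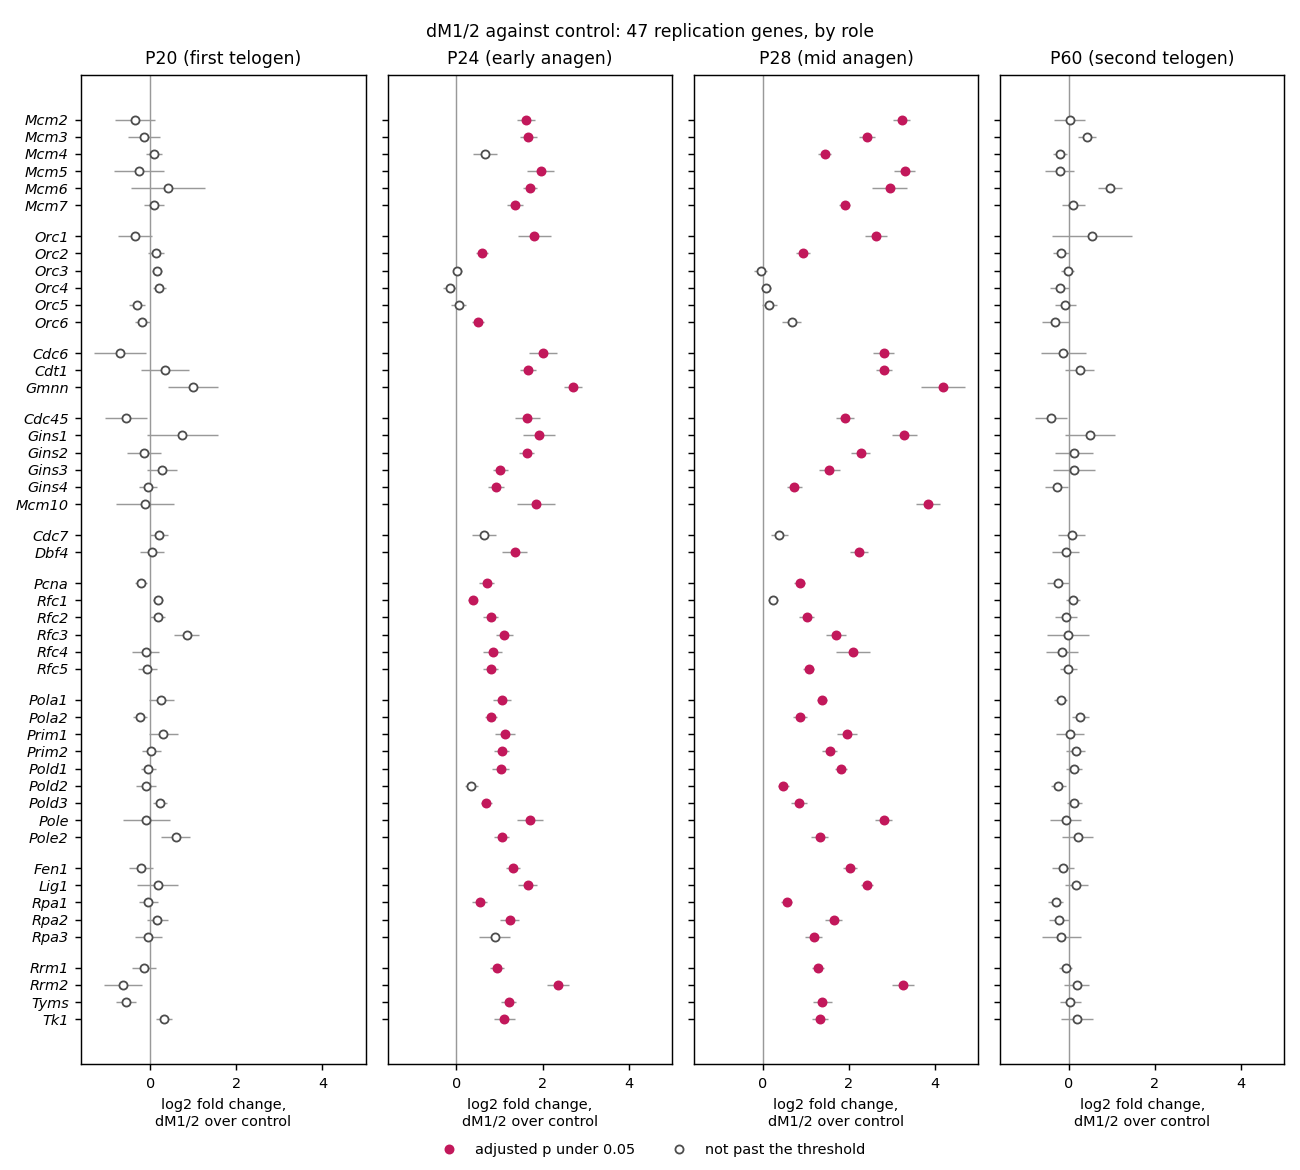
Log2 fold change of dM1/2 over control (x axis, with standard error) of the 47 genes (y axis, grouped by role) at the 4 ages, 3 libraries per group; filled points have an adjusted p under 0.05 in limma. Filled points are on the right at P24 (40 genes) and P28 (41), and there is none at P20 and P60, where Gmnn and Mcm10 of P60 were too low to be tested.

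When libraries were left out in turn, 30 to 41 genes were called at P24 and 37 to 41 at P28. Of the 40 genes called at P24, 28 were called in each of the 6 such fits, while Mcm10, Pcna, Rfc4 and Rpa1 were called in 2 of 6 and Orc6 and Rfc1 in 1 of 6. The others that lost the call in a fit were Orc1, Orc2, Dbf4, Rfc2, Rfc5 and Tk1, which kept it in 3 to 5. At P28, 37 of the 41 were called in each fit, the exceptions being Gins4, Pold2, Pold3 and Rpa1. Without control 3 of P24 it was 41, without dM1/2 2 of P24 37, and without the library labelled P28 control 3 it was 41. In bulk RNA, more cycling cells and more RNA of these genes per cell cannot be told apart.

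The 6 genes of the MCM2-7 helicase, the ring that unwinds DNA at the fork, all rose at P28, and 5 of them at P24, with log2 fold changes of 1.44 (Mcm4) to 3.30 (Mcm5) at P28. At P28, Mcm5 was 74.4, 102 and 55.0 in controls and 664, 808 and 764 in dM1/2. At P24, Mcm5 was 251, 193 and 436 in controls and 1213, 801 and 1292 in dM1/2. In telogen Mcm5 was 88.4, 555 and 402 in controls and 155, 232 and 322 in dM1/2 at P20, and 90.3, 62.0 and 145 against 78.3, 80.5 and 82.4 at P60. The groups were apart in both anagen ages and overlapped in both telogen ages, with log2 fold changes of 3.30 ± 0.24 (SE; adjusted p = 0.00032) at P28 and 1.96 ± 0.31 (adjusted p = 0.0048) at P24. At P28, Mcm2 was 84.4, 96.7 and 70.9 in controls and 671, 745 and 988 in dM1/2. At P24, Mcm2 was 327, 299 and 451 in controls and 1250.3, 854 and 1223 in dM1/2. In telogen Mcm2 was 129, 538 and 427 and 171, 283 and 292 at P20 and 119.6, 129 and 113 against 70.7, 133 and 191 at P60, in controls and dM1/2. Mcm2 thus was 9.38-fold higher at P28 (3.23 ± 0.20 on the log2 scale, adjusted p = 0.00023) and 3.09-fold at P24 (1.63 ± 0.21, adjusted p = 0.0025), without overlap, while the telogen groups overlapped. Mcm3, Mcm6 and Mcm7 had log2 fold changes of 1.67, 1.71 and 1.36 at P24 and of 2.43, 2.96 and 1.91 at P28. Mcm4 had 0.66 ± 0.27 at P24 (adjusted p = 0.11), where control 3 (753, 819 and 1418 in the controls) reached above dM1/2 2 (1856, 1183 and 1586 in dM1/2).

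The 6 helicase subunits were also nearer to each other in level in anagen dM1/2. Per kb of exon, Mcm4 was the highest and Mcm5 the lowest on average in the controls of all 4 ages, and the ratio of the highest to the lowest subunit in a library was 2.89 to 4.09 in P24 controls and 3.65 to 6.62 in P28 controls. In dM1/2 the ratio was 1.42 to 1.71 at P24 and 1.28 to 1.42 at P28, below every control of the same age. In telogen the ratio was 2.08 to 11.1 in controls and 3.69 to 6.33 in dM1/2 at P20, and 5.85 to 11.6 and 6.41 to 7.90 at P60. The narrowing was not particular to the helicase. At P28 the ratio was 53.6 to 76.1 in controls and 8.57 to 10.9 in dM1/2 in ORC, and 17.0 to 27.8 and 5.85 to 6.82 in GINS. In RFC it was 6.96 to 17.8 and 2.17 to 2.96, while in RPA the groups overlapped (1.61 to 2.52 and 1.81 to 2.33). At P24 the groups were apart in ORC and RFC and overlapped in GINS and RPA. These ratios are a description with no test.

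**Figure D2:**
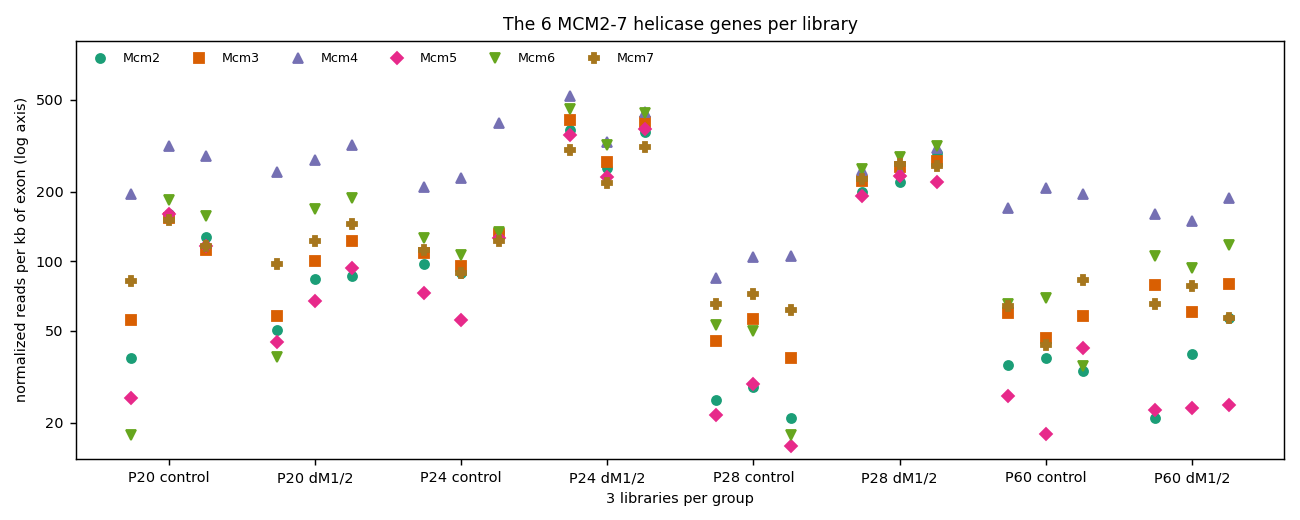
Normalized reads per kb of exon (y axis, log scale) of the 6 MCM2-7 genes in each of the 24 libraries (x axis, 3 per group). In anagen dM1/2 libraries the 6 symbols lie within a ratio of 1.28 to 1.71, in the anagen controls within 2.89 to 6.62.

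ORC was the exception among the origin factors, since Orc1 rose strongly, Orc2 less, and Orc3, Orc4 and Orc5 did not pass the test at either age. ORC is the platform on which the helicase is loaded, and Orc1 is known as the subunit whose level follows the cell cycle in mammals. At P28, Orc1 was 12.2, 14.1 and 12.9 in controls and 92.1, 78.8 and 87.9 in dM1/2. At P24, Orc1 was 21.3, 25.1 and 53.6 in controls and 138, 87.2 and 111 in dM1/2. In telogen Orc1 was 34.8, 48.7 and 28.7 in controls and 22.7, 24.3 and 40.7 in dM1/2 at P20, and 2.10, 31.0 and 20.8 against 10.1, 32.7 and 16.5 at P60. The anagen groups were apart, with log2 fold changes of 2.63 ± 0.25 (adjusted p = 0.00069) at P28 and 1.81 ± 0.38 (adjusted p = 0.012) at P24. At P28, Orc2 was 268, 239.5 and 320.5 in controls and 454, 571 and 551 in dM1/2. At P24, Orc2 was 295, 353 and 318 in controls and 463, 446 and 554 in dM1/2. In telogen Orc2 was 228, 325 and 218 in controls and 282, 268 and 279 in dM1/2 at P20, and 229, 269 and 293 against 229.7, 246 and 221 at P60. Orc2 rose by 0.93 ± 0.16 (adjusted p = 0.0059) at P28 and by 0.59 ± 0.14 (adjusted p = 0.020) at P24, without overlap.

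The log2 fold changes of Orc3, Orc4 and Orc5 were 0.02 ± 0.11, -0.16 ± 0.16 and 0.06 ± 0.18 at P24, and -0.05 ± 0.14, 0.08 ± 0.12 and 0.16 ± 0.17 at P28, with adjusted p values of 0.51 to 0.90 at P24 and of 0.51 to 0.83 at P28. The standard errors, which were at most 0.18, are small beside the rise of Orc1. Their normalized reads were far from the limit of detection: at P28 Orc3 was 576 to 749.7 in controls and 582 to 656 in dM1/2, and Orc4 408 to 433 and 421 to 483. Orc6 passed the test at P24 (0.50 ± 0.14, adjusted p = 0.038) and missed it at P28 (0.67 ± 0.22, adjusted p = 0.0538), although every dM1/2 library was above every control at both ages. Per kb of exon, Orc1 was 0.0475 to 0.0695 of Orc2 in P28 controls and 0.163 to 0.240 in P28 dM1/2.

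Cdc6 and Cdt1, which load the helicase, and Gmnn, which blocks loading, all rose at both anagen ages, and Gmnn had the largest log2 fold change of the 47 genes at both. At P28, Gmnn was 8.26, 7.04 and 29.2 in controls and 205, 284 and 233 in dM1/2. At P24, Gmnn was 28.2, 34.6 and 41.7 in controls and 229.7, 212 and 256 in dM1/2. In telogen Gmnn was 5.36, 24.3 and 20.1 in controls and 27.3, 28.8 and 31.4 in dM1/2 at P20, and 4.20, 2.38 and 9.22 against 7.57, 15.1 and 18.8 at P60. The anagen groups were far apart (4.19 ± 0.51 at P28, adjusted p = 0.0015; 2.72 ± 0.21 at P24, adjusted p = 0.00080), and the library labelled P28 control 3 was above the other 2 controls. The P20 groups did not overlap either, but the difference missed the test (1.003 ± 0.58, adjusted p = 0.36). At P28, Cdt1 was 34.8, 46.8 and 37.2 in controls and 293, 279 and 275 in dM1/2. At P24, Cdt1 was 97.5, 106 and 129.8 in controls and 407, 291 and 359 in dM1/2. In telogen Cdt1 was 37.5, 170.4 and 178 in controls and 84.1, 157 and 179 in dM1/2 at P20, and 71.4, 69.1 and 99.1 against 63.1, 101 and 132 at P60. Cdt1 was 7.03-fold higher in dM1/2 at P28 (2.81 ± 0.19, adjusted p = 0.00028) and 3.15-fold at P24 (1.65 ± 0.19, adjusted p = 0.0018). Cdc6 rose by 2.81 ± 0.24 at P28 and by 2.02 ± 0.32 at P24. Per kb of exon, Gmnn stood at 0.433 to 0.489 of Cdt1 in P24 controls and at 0.842 to 1.09 in P24 dM1/2. At P28 the ratio was 0.225 to 1.17 in controls and 1.04 to 1.52 in dM1/2, and the groups overlapped through the library labelled P28 control 3. It was also higher in dM1/2 without overlap in telogen. There it was 0.169 to 0.213 against 0.262 to 0.485 at P20, and 0.0515 to 0.139 against 0.179 to 0.224 at P60. The telogen ratios rest on few reads of Gmnn, which were 2, 9 and 7 in P20 controls and 2, 1 and 4 in P60 controls.

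Cdc45, GINS and Mcm10, which turn the loaded ring into a working helicase, rose in all 6 genes at both ages. At P28, Mcm10 was 7.39, 8.97 and 11.8 in controls and 137, 134 and 167 in dM1/2. At P24, Mcm10 was 43.7, 38.7 and 131 in controls and 273, 180.1 and 218 in dM1/2. In telogen Mcm10 was 13.4, 59.5 and 40.2 in controls and 11.4, 44.3 and 48.1 in dM1/2 at P20, and 12.6, 4.77 and 11.5 against 10.1, 5.03 and 4.71 at P60. The groups did not overlap at P24 and P28, control 3 of P24 being the highest control, and the change was 1.85 ± 0.45 at P24 (adjusted p = 0.021) and 3.84 ± 0.28 at P28 (adjusted p = 0.00032). At P28, Gins1 was 7.39, 11.5 and 7.58 in controls and 90.4, 88.3 and 103 in dM1/2. At P24, Gins1 was 17.4, 21.1 and 46.4 in controls and 107, 93.3 and 103 in dM1/2. In telogen Gins1 was 8.04, 32.5 and 5.74 in controls and 6.82, 33.2 and 35.1 in dM1/2 at P20, and 8.40, 9.53 and 13.8 against 12.6, 10.1 and 25.9 at P60. Gins1 rose by 3.29 ± 0.30 (adjusted p = 0.00059) at P28 and by 1.92 ± 0.37 (adjusted p = 0.0093) at P24. Control means of Mcm10 and Gins1 were below 10 normalized reads at P28, so that both passed the filter on low values there through the dM1/2 libraries. Cdc45, Gins2 and Gins3 rose by 1.92, 2.27 and 1.55 at P28, and Gins4 by 0.73 ± 0.17. Gins4 was among the 4 genes whose log2 fold change was not larger at P28 than at P24 (0.92), with Orc3, Cdc7 and Rfc1.

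The activating kinase split into its subunits. Dbf4, the regulatory subunit, rose at both ages, and Cdc7, the catalytic subunit, passed the test at neither. At P28, Dbf4 was 60.5, 80.7 and 52.0 in controls and 316, 283 and 303 in dM1/2. At P24, Dbf4 was 117, 123 and 252 in controls and 365, 377 and 441 in dM1/2. In telogen Dbf4 was 85.7, 143 and 97.5 in controls and 88.7, 144 and 102 in dM1/2 at P20, and 101, 52.4 and 85.3 against 65.6, 72.9 and 80.0 at P60. The change was 2.23 ± 0.21 (adjusted p = 0.00066) at P28 and 1.35 ± 0.29 (adjusted p = 0.014) at P24. At P28, Cdc7 was 97.4, 104 and 121 in controls and 166, 124 and 132 in dM1/2. At P24, Cdc7 was 73.5, 143 and 146 in controls and 181, 175 and 183 in dM1/2. In telogen Cdc7 was 85.7, 92.0 and 94.6 in controls and 93.2, 102 and 122 in dM1/2 at P20, and 101, 95.3 and 69.2 against 78.3, 131 and 75.3 at P60. Cdc7 was higher in every dM1/2 library at P24 and P28, but its changes of 0.63 ± 0.28 (adjusted p = 0.13) and 0.38 ± 0.20 (adjusted p = 0.17) missed the test. Per kb of exon, Dbf4 stood at 0.497 to 0.903 of Cdc7 in P28 controls and at 2.21 to 2.66 in P28 dM1/2.

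**Figure D3:**
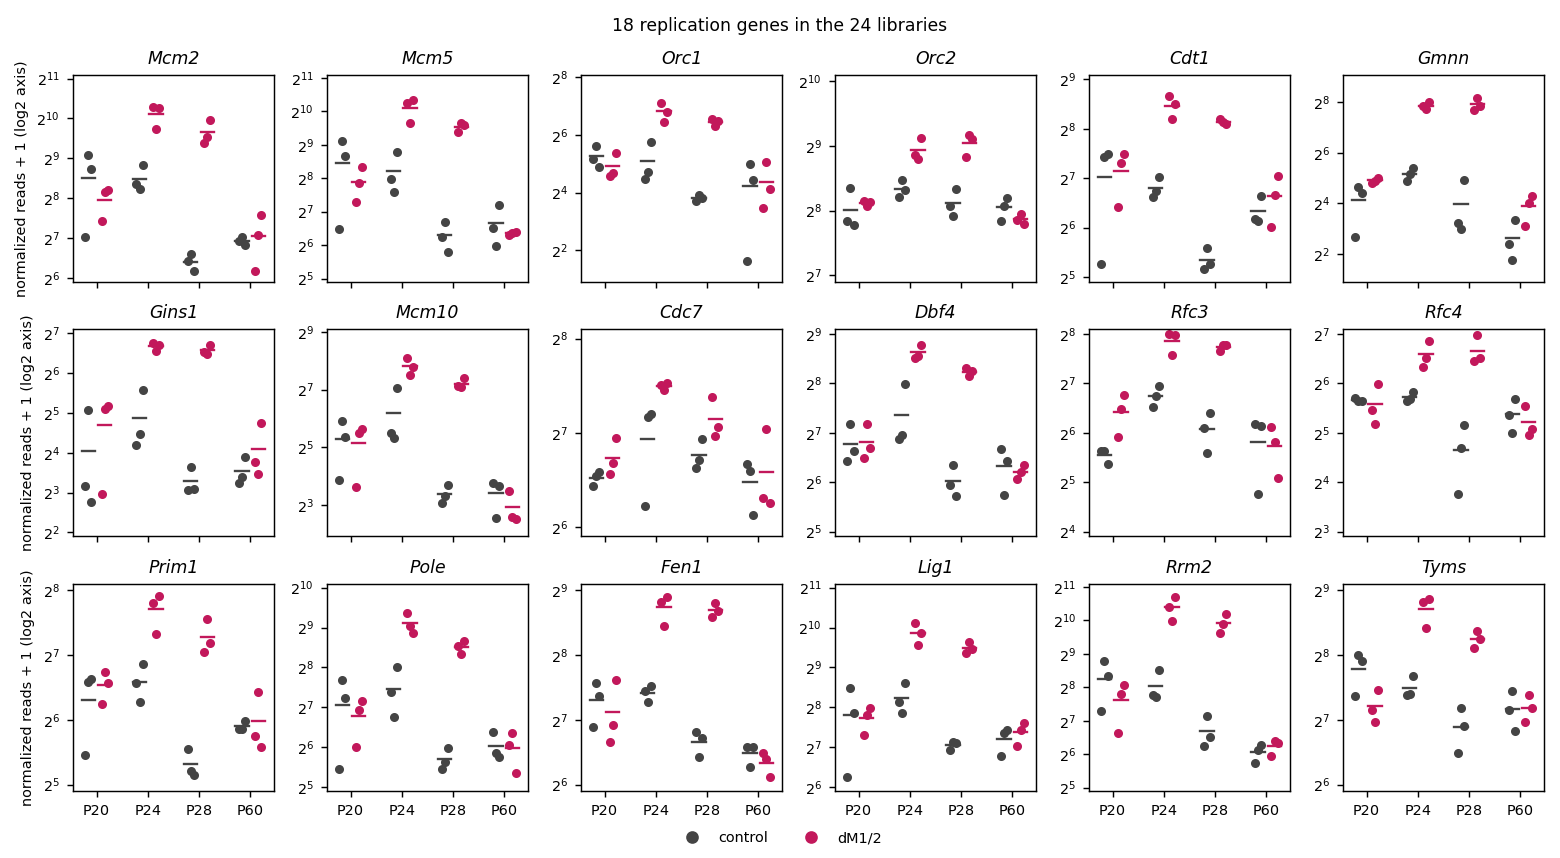
Normalized reads + 1 (y axis, log2 scale) of 18 genes, the 2 with the largest change at P28 of each role, in the 3 control and 3 dM1/2 libraries of each age (x axis); points are libraries and bars are means. At P28 dM1/2 points lie above all control points in every panel, whereas those of P20 and P60 overlap in most panels.

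Pcna, the clamp that tethers polymerases to DNA, rose moderately, by 0.70 ± 0.18 at P24 (adjusted p = 0.024) and 0.86 ± 0.13 at P28 (adjusted p = 0.0030), from 420.2 to 511 normalized reads in P28 controls to 779.5 to 907 in dM1/2. Of its loader RFC, the small subunits Rfc2 to Rfc5 rose at both ages. The large subunit Rfc1 rose by 0.38 ± 0.11 (adjusted p = 0.035) at P24 and missed the test at P28 (0.24 ± 0.12, adjusted p = 0.16). At P28, Rfc4 was 12.6, 24.98 and 34.9 in controls and 86.1, 125 and 90.7 in dM1/2. At P24, Rfc4 was 49.1, 50.7 and 56.0 in controls and 79.2, 90.6 and 115 in dM1/2. In telogen Rfc4 was 50.9, 48.7 and 48.8 in controls and 43.2, 35.4 and 62.9 in dM1/2 at P20, and 39.9, 31.0 and 50.7 against 45.4, 30.2 and 32.9 at P60. Rfc4 rose by 2.10 ± 0.40 (adjusted p = 0.0076) at P28 and 0.84 ± 0.22 (adjusted p = 0.028) at P24. At P28, Rfc3 was 67.4, 47.4 and 83.8 in controls and 200.0, 218 and 219 in dM1/2. At P24, Rfc3 was 91.3, 106 and 122 in controls and 255, 190.0 and 252 in dM1/2. In telogen Rfc3 was 48.2, 48.7 and 40.2 in controls and 59.1, 88.5 and 107 in dM1/2 at P20, and 71.4, 26.2 and 69.2 against 68.2, 55.3 and 32.9 at P60. Rfc3 rose by 1.70 ± 0.24 (adjusted p = 0.0025) at P28 and 1.11 ± 0.19 (adjusted p = 0.0064) at P24, and at P20 its groups did not overlap without passing the test (0.84 ± 0.30, adjusted p = 0.17). Pcna shares sequence with annotated pseudogenes, so that its counts are less certain.

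All 9 genes of primase and polymerases rose at P28, and 8 at P24, Pold2 being the exception (0.34 ± 0.15, adjusted p = 0.13). Primase starts each new strand with Pola1 and Pola2, Pold1 to Pold3 belong to the lagging-strand enzyme, and Pole and Pole2 to the leading-strand enzyme. At P28, Pole was 43.1, 48.7 and 62.6 in controls and 369.7, 320.1 and 402 in dM1/2. At P24, Pole was 165, 108 and 256 in controls and 655, 529 and 468 in dM1/2. In telogen Pole was 42.9, 206 and 149 in controls and 63.7, 122 and 142 in dM1/2 at P20, and 81.9, 57.2 and 53.0 against 65.6, 80.5 and 40.0 at P60. Pole, the catalytic subunit, rose 7.01-fold at P28 (2.81 ± 0.20, adjusted p = 0.00032) and 3.27-fold at P24 (1.71 ± 0.30, adjusted p = 0.0069). At P28, Prim1 was 45.7, 35.9 and 34.5 in controls and 132, 186 and 145 in dM1/2. At P24, Prim1 was 93.6, 76.3 and 115 in controls and 223, 159.6 and 240.4 in dM1/2. In telogen Prim1 was 42.9, 94.7 and 97.5 in controls and 75.0, 106 and 94.3 in dM1/2 at P20, and 56.7, 57.2 and 62.3 against 53.0, 85.5 and 47.1 at P60. Prim1, the catalytic primase subunit, rose by 1.96 ± 0.23 (adjusted p = 0.0013) and 1.12 ± 0.23 (adjusted p = 0.012). The catalytic subunits Pola1 and Pold1 rose by 1.38 and 1.83 at P28, while Pold2, Pold3 and Pola2 rose by 0.48, 0.85 and 0.87. Prim2 and Pole2, the partners of Prim1 and Pole, did not stay below Pola1 in this way. With a library left out, Prim2 rose by 1.46 to 1.68, Pole2 by 1.24 to 1.41 and Pola1 by 1.33 to 1.43 at P28. Per kb of exon, Prim1 stood at 0.321 to 0.555 of Prim2 in P28 controls and 0.488 to 0.653 in P28 dM1/2, with overlap.

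Fen1, which trims the flaps between Okazaki fragments, and Lig1, which seals them, rose at both ages. At P28, Lig1 was 121, 139.6 and 137 in controls and 659, 794 and 705 in dM1/2. At P24, Lig1 was 277, 229 and 390.2 in controls and 1105, 758 and 937 in dM1/2. In telogen Lig1 was 75.0, 359.8 and 229 in controls and 157, 224 and 253 in dM1/2 at P20, and 109, 162 and 171 against 129, 171 and 195 at P60. Lig1 rose by 2.43 ± 0.14 (adjusted p = 0.00020) at P28 and 1.66 ± 0.22 (adjusted p = 0.0029) at P24. At P28, Fen1 was 112, 85.2 and 104 in controls and 382, 444 and 409 in dM1/2. At P24, Fen1 was 173, 154 and 182 in controls and 449.6, 349 and 475 in dM1/2. In telogen Fen1 was 118, 189 and 163 in controls and 100.1, 119.5 and 194 in dM1/2 at P20, and 94.5, 76.3 and 94.5 against 88.4, 83.0 and 68.2 at P60. Fen1 rose by 2.03 ± 0.17 (adjusted p = 0.00044) at P28 and 1.31 ± 0.17 (adjusted p = 0.0023) at P24. RPA covers single-stranded DNA, and its subunits Rpa1 and Rpa2 rose at P24 (0.54 and 1.24) and P28 (0.56 and 1.65). Rpa3 rose at P28 (1.18 ± 0.19, adjusted p = 0.0039) and missed the test at P24 (0.89 ± 0.36, adjusted p = 0.11), where the lowest dM1/2 library (116, 171 and 249.9 in dM1/2) was level with the highest control (116, 114 and 58.0 in controls).

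The 4 genes of nucleotide supply rose at both ages, and Rrm2 stood out among them. Rrm1 and Rrm2 are the subunits of ribonucleotide reductase, Rrm2 being known as the subunit that is made in S phase, and Tyms and Tk1 make thymidylate. At P28, Rrm2 was 75.7, 139.6 and 91.4 in controls and 796, 947 and 1172 in dM1/2. At P24, Rrm2 was 218, 210.4 and 365 in controls and 1355, 1019 and 1673 in dM1/2. In telogen Rrm2 was 155, 438 and 321 in controls and 97.8, 224 and 268 in dM1/2 at P20, and 52.5, 69.1 and 76.1 against 60.6, 83.0 and 80.0 at P60. Rrm2 rose 9.61-fold at P28 (3.27 ± 0.26, adjusted p = 0.00041) and 5.15-fold at P24 (2.36 ± 0.26, adjusted p = 0.0017), and Rrm1 by 1.29 ± 0.14 and 0.94 ± 0.16 on the log2 scale. Per kb of exon, Rrm2 stood at 0.553 to 0.739 of Rrm1 in P24 controls and 1.51 to 1.80 in P24 dM1/2, and at 0.276 to 0.486 and 1.25 to 1.46 at P28. At P28, Tyms was 89.2, 144 and 118 in controls and 276, 331 and 303 in dM1/2. At P24, Tyms was 165, 168 and 203 in controls and 453, 340.1 and 466 in dM1/2. In telogen Tyms was 163, 254 and 238 in controls and 141, 124 and 176 in dM1/2 at P20, and 141, 174 and 113 against 124, 166 and 144 at P60. Tyms rose by 1.39 ± 0.21 (adjusted p = 0.0033) and 1.22 ± 0.17 (adjusted p = 0.0034), and Tk1 by 1.33 ± 0.20 and 1.11 ± 0.24; Tyms has an annotated pseudogene, so that its counts are less certain.

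In telogen no replication gene passed the test. At P20, 0 of the 47 genes were called, beside 0.354% of 13845 genes that were higher and 0.0795% that were lower in limma, with a median log2 fold change of -0.04, 2 genes at an unadjusted p under 0.05 and none by edgeR or DESeq2. At P60, 0 of 45 genes tested were called, beside 0.0% of 14042 genes in either direction, with a median of -0.02, 1 gene at an unadjusted p under 0.05 and none by edgeR or DESeq2. Gmnn and Mcm10 were below the filter at P60, and telogen libraries had fewer reads than anagen libraries. Summed DP markers at P20 were 36622 to 43575 in controls and 48704 to 67582 in dM1/2. Those of the dermal sheath and other fibroblasts were 49595 to 73992 and 34778 to 46885, and immune markers 806 to 950 and 481 to 741. These ranges did not overlap, while those of the other marker lists did. At P60 the immune and cycling sums alone did not overlap. The part of these markers in the telogen results was not tested. At P20 the standard errors reached 0.86 (Mcm6, 77.7, 809 and 685 in controls), with control 1 far below the other 2, and without control 1 Mcm2 and Tyms were called lower in dM1/2. The groups did not overlap at P20 in 4 genes, Orc3, Gmnn, Rfc1 and Rfc3, all higher in dM1/2, beside 12.1% of genes higher and 13.3% lower. At P60 they did not overlap in 2 genes that were higher (Mcm3 and Mcm6, beside 4.79%) and 3 that were lower (Cdc45, Pola1 and Pold2, beside 4.08%). The effect itself differed between anagen and telogen: the mean effect of P24 and P28 less that of P20 and P60 was positive past the threshold in 40 of the 47 genes and negative in none, beside 16.1% of 14243 genes that were positive and 14.1% that were negative, with a median of 1.22. The genes that did not pass this test were Mcm6, Orc3, Orc4, Orc5, Cdc7, Rfc1 and Pole2 (0.79 ± 0.30, adjusted p = 0.0502). Mcm6 was 285, 303 and 154 in controls and 462, 409.8 and 513 in dM1/2 at P60, groups that did not overlap, with 0.95 ± 0.27 (adjusted p = 0.99).

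Over the 4 ages in controls, most replication genes had their lowest mean at P28. Of the 47 genes, 31 had their highest control mean at P24 and 30 their lowest at P28. The shares of all genes with this order were not counted, so that it cannot be read as particular to these genes. Control 3 of P24 was the highest of its group in 38 of the 47 genes. Variation of a gene over the 4 ages in controls passed limma's F test in 21 of 47 genes, beside 49.0% of 14066 genes, so that the share was near that of all genes; without control 3 of P20 it was 13. Markers of cell types also moved with age in controls. The median summed reads at P20, P24, P28 and P60 were 43381, 376914, 321337 and 37568 for DP markers, 59832, 18244, 40712 and 73663 for dermal sheath and other fibroblast markers, and 1192, 301, 120.1 and 906 for muscle markers. Their part in the course, and in the difference between anagen and telogen, was not tested. From P20 to P24, 4 genes rose in controls, beside 16.6% of 13969 genes, namely Orc3 (0.45 ± 0.12, adjusted p = 0.023), Gins3 (1.22 ± 0.25, 0.0078), Rfc1 (0.49 ± 0.11, 0.013) and Rfc3 (1.20 ± 0.24, 0.0071). Pcna fell, beside 17.2% of genes, from 1037, 1158 and 1130.0 to 534, 611 and 660.2 (-0.88 ± 0.13, adjusted p = 0.0020), without overlap. Without control 3 of P20, Gins3, Rfc3 and Pcna were the 3 genes called.

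From P24 to P28, 45 of the 47 genes had a negative log2 fold change in controls, with a median of -0.71 beside -0.02 over all genes. Past the threshold were Mcm2 (-2.07 ± 0.22, adjusted p = 0.024), Mcm3 (-1.26 ± 0.21, 0.0479) and Cdt1 (-1.47 ± 0.23, 0.0451), beside 0.738% of 13966 genes that fell and 0.723% that rose. These calls were fragile. Without any of the P24 controls, or without P28 control 1 or 2, 0 genes were called, without the library labelled P28 control 3 it was 2, and DESeq2 called 17 and edgeR 1. The median was -0.61 without control 3 of P24. In dM1/2 over the same days, a comparison added after the values were seen, 38 of 47 genes had a negative log2 fold change with a median of -0.28, 0 genes passed the test in limma (16 at an unadjusted p under 0.05, 3 by DESeq2 and 0 by edgeR), beside 0.983% of 14032 genes that fell and 1.69% that rose, and without dM1/2 2 of P24 3 genes were called.

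**Figure D4:**
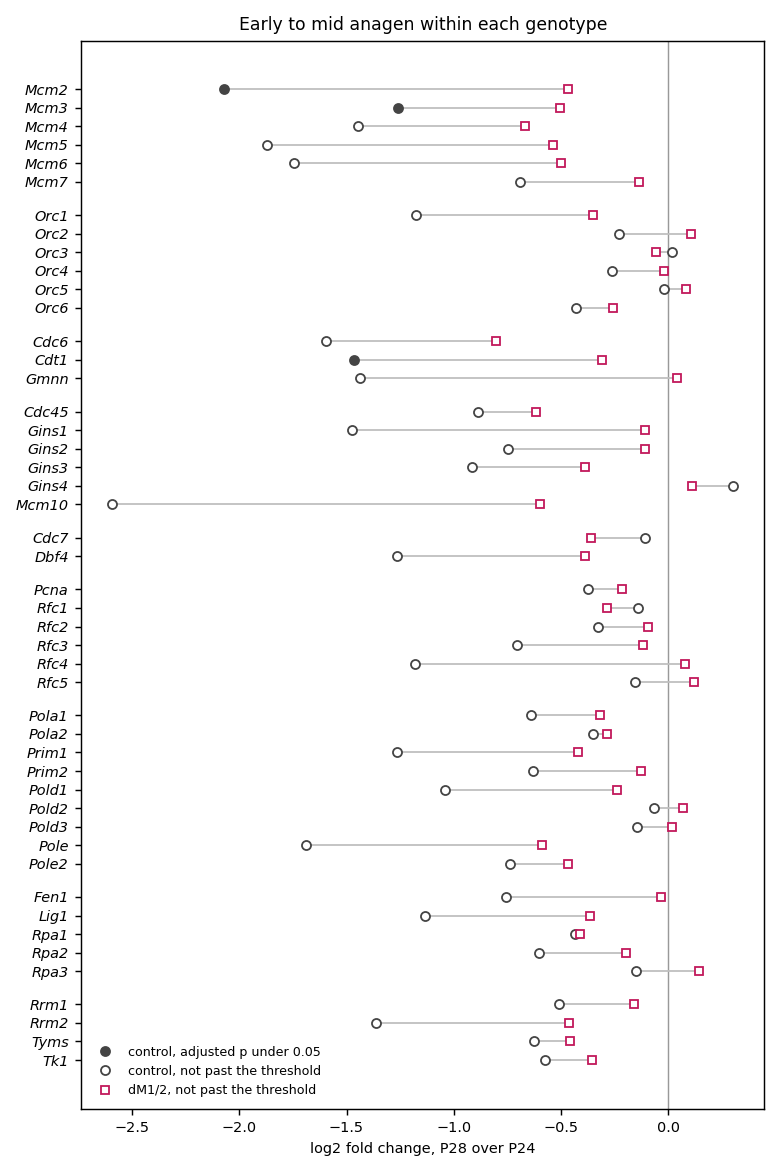
Log2 fold change from P24 to P28 (x axis) of the 47 genes (y axis, grouped by role) in controls (circles) and in dM1/2 (squares), 3 libraries per group; filled circles have an adjusted p under 0.05. The circle is further left than the square in 43 of the 47 genes.

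The effect of the genotype was larger at P28 than at P24 in 43 of 47 genes, with a median difference of 0.51, and it passed the test of the difference in Mcm2 alone (1.60 ± 0.31, adjusted p = 0.0432), beside 0.453% of 14139 genes, while 19 genes had an unadjusted p under 0.05. In Mcm2 the difference came with a control level of 327, 299 and 451 at P24 and 84.4, 96.7 and 70.9 at P28, and a dM1/2 level of 1250.3, 854 and 1223 and 671, 745 and 988. No gene passed without P24 control 1 or 3, without any dM1/2 library of P24 or P28, or without P28 control 1. Without the library labelled P28 control 3, Gmnn passed in place of Mcm2, and without P28 control 2 Mcm2 and Cdt1 passed. The next gene was Cdt1, which missed the test (1.16 ± 0.26, adjusted p = 0.068) and was called by DESeq2, as were Mcm2 and Mcm10.

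From P28 to P60, 6 of 45 genes tested rose in controls, beside 10.2% of 14073 genes, and none fell, beside 11.1%. They were Mcm4 (0.96 ± 0.15, adjusted p = 0.011), Tk1 (0.99 ± 0.19, 0.018), Pcna (0.92 ± 0.17, 0.016), Cdt1 (0.99 ± 0.26, 0.0418), Pola1 (0.52 ± 0.13, 0.037) and Pold1 (0.64 ± 0.17, 0.0428). Mcm4 went from 303, 376 and 378 to 611, 746 and 703 and Pcna from 420.2, 511 and 462 to 764, 819.9 and 1079, without overlap. Here deviations of same-numbered libraries, which are of different mice, correlated weakly (0.119 to 0.165), and pairs with different numbers were not compared. With the replicate number as a block 3 of the 6 were called, Mcm4, Pcna and Tk1. Without P28 control 1 or P60 control 2 no gene was called, without P60 control 1 it was 3 and without P60 control 3 it was 2. Cdc6, in contrast to these, was 20.9, 19.9 and 19.3 in P28 controls and 10.5, 16.7 and 13.8 in P60 controls, with -0.54 ± 0.35 (adjusted p = 0.29).

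Markers of cycling cells were higher in dM1/2 in anagen, as the replication genes were. At P60 the cycling sums, which were low, did not overlap between the genotypes, while the sums of the 47 genes did. The summed reads of Mki67, Top2a, Cdk1, Ccnb1 and Aurkb were 1532 to 5084 in controls and 7671 to 9631 in dM1/2 at P24, 474 to 686 and 5524 to 6492 at P28, 214 to 2013 and 216 to 1339 at P20, and 66.9 to 105 and 141 to 429 at P60. Up to 2 of these 5 genes had 0 reads in a P60 control. The 429 was that of dM1/2 1, beside 141 and 151 in the other dM1/2 libraries. This library also had the highest endothelial (6188), immune (1020) and fibroblast (156269) marker sums of P60. A sum gives most weight to the genes with the most reads. Summed over the 47 genes, the values were 11347 to 14759 and 21948 to 28565 at P24, 7922 to 8503 and 19601 to 22400 at P28, and 9231 to 10193 and 9240 to 9766 at P60. Keratinocyte markers (13 genes, with Krt5 and Krt14) were 210 to 822 in controls and 244 to 312 in dM1/2 at P24, and 214 to 410 and 237 to 373 at P28, with overlapping ranges. The ranges of melanocyte (8 genes), endothelial (7), immune (6) and muscle (5) markers also overlapped between the genotypes at P24 and at P28. Those of 9 genes of the dermal sheath and other fibroblasts were 8360 to 36992 in controls and 10755 to 15356 in dM1/2 at P24. At P28 they were 40712, 62594 and 7127 in the libraries labelled control, the third lying below and the others above the 13030 to 19272 of dM1/2. The sums of 13 hair matrix and shaft genes did not overlap, at 493 to 748 in controls and 1080 to 1412 in dM1/2 at P24 and 258 to 756 and 951 to 1243 at P28. Msx2 alone gave 388 to 608 in controls and 1000.5 to 1316 in dM1/2 at P24. Shh was at 0 in 22 of the 24 libraries, which allows up to 3 reads in each, and Krt25 was at most 13.1 normalized reads. The other genes of this list, and Msx2 at P28, are not given singly here. The part of matrix cells in the results was not tested beyond these values.

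**Figure D5:**
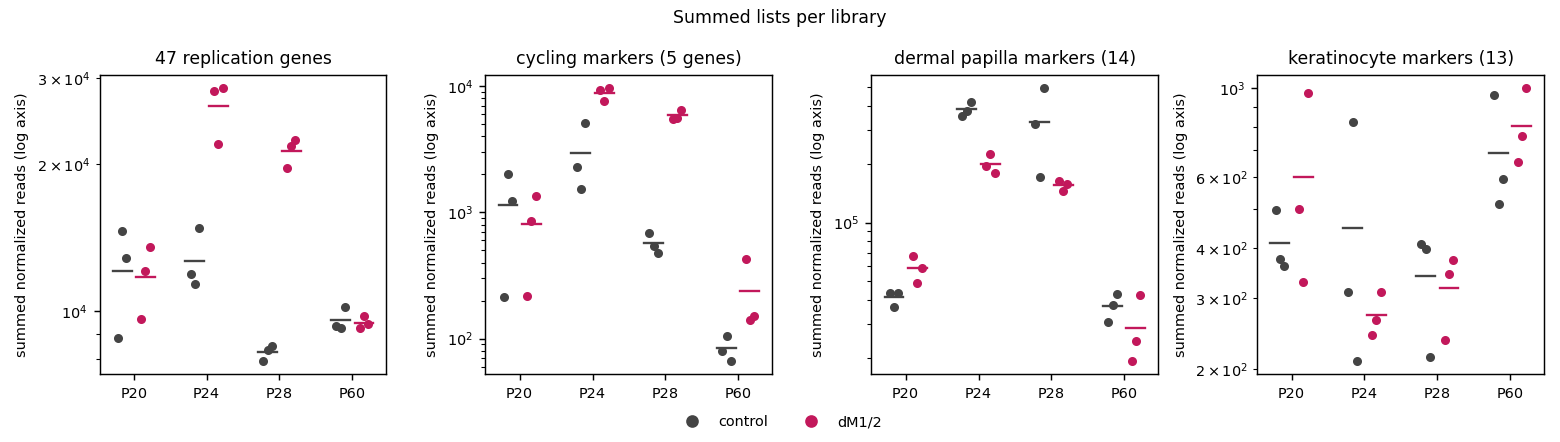
Summed normalized reads (y axis, log scale) of the 47 replication genes, 5 cycling markers, 14 DP markers and 13 keratinocyte markers in the 3 control and 3 dM1/2 libraries of each age (x axis); points are libraries and bars are means. Replication genes and cycling markers are higher in every anagen dM1/2 library than in the controls, DP markers are lower, and keratinocyte markers overlap. Whether the lower DP sums come from a smaller share of DP cells among the sorted cells or from less RNA of the markers per cell was not tested.

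Other genes of the pathway, a list of 45 that were not members, moved less evenly. In limma, 27 rose and 1 fell at P24, beside 14.8% and 11.8% of all genes, and 29 rose and 2 fell at P28, beside 20.0% of all genes that rose and 15.6% that fell, with medians of 0.81 and 0.89. The largest rises at P28 were those of the histone chaperones Asf1b (4.29 ± 0.29, adjusted p = 0.00029) and Chaf1b (3.98 ± 0.32, 0.00042) and of the clamp loader subunit Chtf18 (3.76 ± 0.23, 0.00021). The gene that fell at P24 was the topoisomerase Top2b (-0.72 ± 0.11, adjusted p = 0.0040). The genes that fell at P28 were Samhd1 (-1.03 ± 0.12, adjusted p = 0.0013), an enzyme that breaks down deoxynucleotides, and Rrm2b (-0.64 ± 0.15, 0.015), the reductase subunit known for use outside S phase. Top1, the next lowest, had -0.44 ± 0.14 (adjusted p = 0.0537). The median log2 fold change of the list was -0.04 at P20 and 0.02 at P60, over 44 and 43 genes tested.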

How the data were processed

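The authors trimmed 50-base single-end reads with Trimmomatic, aligned them with TopHat2 to mm10 (GRCm38.p4), counted them per gene with HTSeq and divided the counts by DESeq2 size factors over all 24 libraries. The deposited signal is this normalized read count, and the authors' columns of fold changes and p-values were not used. Whether counting used strand is not given in the sources used here. Whole reads were recovered for 100% of values (tolerance 0.01 reads) and used for edgeR, DESeq2 and the depths.

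Each comparison was fitted with limma 3.58.1 (R 4.3.3, trend) on log2(normalized reads + 1), leaving out genes that averaged under 10 normalized reads, two-sided, with Benjamini-Hochberg adjustment over all genes and a threshold of 0.05; fold changes are on that scale and understate low genes. The fits were tested on simulated data in which every gene had the same set dispersion, so that the test does not show how they behave at the spread of these libraries. The members and lists were chosen with earlier results of these data known. Named genes were the 2 of each of 9 roles with the largest absolute log2 fold change at P28, and the members not past the threshold at P24 or P28. Alternatives were a pseudocount of 10, no filter, a filter in every library, log2-CPM with TMM, edgeR 4.0.16 with TMM or DESeq2's size factors, DESeq2 1.42.0, a fit over all libraries, the replicate number as a block, and each library left out. Each mouse was sorted on its own, and replicate numbers name different mice. Deviations of same-numbered libraries correlated above 0.1 in every pair only between P28 and P60 controls (0.119 to 0.165). Lengths per kb are from GENCODE annotation of GRCm38, which matched 25431 of 25755 genes. Of the members, 3 share exon sequence with a gene on the same strand (Orc5, Pole2 and Rpa1) and 14 with a gene on the other strand. The 14 are Mcm7, Orc1, Orc2, Orc4, Orc6, Cdc45, Gins2, Rfc2, Rfc4, Rfc5, Pole, Fen1, Lig1 and Tk1. The counts of all these genes are less certain.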

Additional observations from a re-analysis of the deposited data

Results flagged for a closer look

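The effect of the genotype differed between anagen and telogen in 40 of the 47 genes, by limma's test of the difference itself (anagen minus telogen, log2 scale), and in 40 of 40 the anagen effect was the higher, beside 16.1% of all genes tested in which it was higher and 14.1% in which it was lower. Among the named genes the difference was largest in Mcm10 (3.13), Rrm2 (3.04) and Mcm5 (2.86). It was 2.60 in Mcm2, 2.34 in Pole, 2.30 in Gmnn, 2.14 in Orc1 and 1.99 in Gins1. It was 1.93 in Cdt1, 1.87 in Lig1, 1.85 in Fen1, 1.81 in Dbf4, 1.60 in Rfc4, 1.57 in Tyms, 1.38 in Prim1, 0.997 in Rfc3 and 0.79 in Orc2. Mcm10 and Gmnn were below the filter on low values at P60, so that their telogen effect rests in part on few reads. Stage cannot be told apart from sex and depth here, and sums of cell type markers also moved with stage. Between P28 and P24 the effect differed in 1 gene, Mcm2 (1.60 higher at P28), a call that most fits with a library left out did not keep.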

How the results depend on the processing

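The counts of genes higher in dM1/2 at P24 and P28, and of genes whose effect differed between anagen and telogen, stayed within 1.5 times under every alternative run. They were 34 to 40, 38 to 42 and 37 to 42 genes in the alternatives that kept all libraries. With a library left out they were 30 to 41, 37 to 41 and 38 to 42 genes. Of the values of single named genes, 565 kept direction and side of the threshold, 30 lost the threshold and 5 gained it, none reversing; with a library left out 319 kept both, 84 lost it, 2 gained it and 3 reversed. The cause of these changes was not tested. The difference of the effect between P24 and P28 was called in 3 genes by DESeq2 and in 0 in the fit over all libraries and with the replicate block. The fall from P24 to P28 in controls was called in 1 gene with no filter and by edgeR with TMM or DESeq2's size factors, in 17 by DESeq2, in 15 in the fit over all libraries and in 0 with the block. With the block, 3 genes were called from P20 to P24 and 3 from P28 to P60 in controls; it moved no other count by over 1.5 times (34 genes at P24 and 40 at P28). From P24 to P28 in dM1/2, DESeq2 called 3 genes. With a library left out, calls ranged from 0 to 2 at P20, 0 to 2 for the difference between P24 and P28, 13 to 28 for the course in controls, 3 to 5 from P20 to P24, 0 to 2 from P24 to P28 and 0 to 4 from P28 to P60 in controls, and 0 to 3 from P24 to P28 in dM1/2. The log2 fold change ranged from -0.022 (without dM1/2 2) to 0.062 in Orc3 at P24, from -0.047 (without dM1/2 3) to 0.19 in Orc5 at P24 and from -0.12 to 0.074 (without the library labelled P28 control 3) in Orc3 at P28. Telogen libraries, at 8171944 to 13369732 reads, limit what could be called there.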

Other observations

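Other promoter words of cell cycle genes were searched in the same windows. The word CCAAT was found in 23 of 39 members (59.0%), beside 41.1% of all genes with a window. The word TTTGAA, the core of the element that marks genes of late cell cycle phases, was found in 7 of 39 members (17.9%), beside 20.2% of all genes. Both strands were searched, and the matches describe the letters only.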
